A study of Caenorhabditis elegans with 16 samples.

Results

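The insulin receptor pathway of Caenorhabditis elegans was followed here through 9 genes, chosen by name: the receptor daf-2, its adaptor ist-1, the lipid kinase age-1, the lipid phosphatase daf-18, the protein kinases pdk-1, akt-1, akt-2 and sgk-1, and the transcription factor daf-16. All 9 were found among the 46904 genes listed. RNA of whole worms of the wild-type strain N2 was sequenced in 16 libraries. The 9 control libraries came from worms fed HT115, bacteria of the kind that deliver RNAi through food, with an empty vector. For the other 7, HT115 made double-stranded RNA against atp-2, which encodes a catalytic subunit of the ATP synthase of mitochondria. At 0 hr and at 20 hr there were 3 control libraries and 2 atp-2 RNAi libraries (replicates 2 and 3), with 1 library of each kind at 24 hr and at 36 hr. One more control, of 48 hr, stands beside atp-2 RNAi worms of 54 hr. The stated purpose was to find neuronal genes used when worms learn to avoid a stress and remember it. What the hours are counted from is not in the labels. Whether the single libraries share that start with the 0 hr and 20 hr libraries is not given either, nor whether replicates are separate cultures. The p-values therefore measure spread among these samples alone, and that spread may be technical.

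In this pathway, insulin-like peptides bind DAF-2, which recruits the phosphoinositide 3-kinase AGE-1. AGE-1 makes the lipid PIP3, DAF-18 removes it, and PIP3 brings PDK-1 to the kinases AKT-1, AKT-2 and SGK-1. The AKT kinases phosphorylate DAF-16, the FOXO transcription factor, and so keep it out of the nucleus. In worms the pathway is known for its part in dauer entry, lifespan, stress resistance, and learning and memory. Much of its control is by phosphorylation, which transcript levels do not show.

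Values are TPM, a share of all transcripts in the library set per unit of transcript length, so a gene's value also depends on every other transcript in the library, and sequencing depth is unknown. Fold changes of replicated groups are differences of log2(TPM + 1), tested by limma over every gene that averaged 1 TPM or more, and adjusted after Benjamini and Hochberg, with calls at 0.05. In whole worms, fewer cells of a type and less RNA per cell cannot be told apart.

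Several library-wide facts bear on all values below. Across 13750 genes, the log2 values of replicates had correlations of 0.976 to 0.995. The atp-2 RNAi libraries of 0 hr and 20 hr correlated with the controls of the same 2 times at only 0.498 to 0.668, and with the controls of 24 hr and 36 hr at 0.886 to 0.935. The target atp-2 stood at 6.18% of control at 0 hr and 10.7% at 20 hr, and its single-library ratios were 0.469 at 24 hr, 0.285 at 36 hr and 0.166 for 54 hr over 48 hr. The summed TPM of 12 germline markers was 3326 to 3726 in the 0 hr controls and 4050 to 6676 in the 20 hr controls. It was 141 to 153 and 181 to 311 in the atp-2 RNAi libraries of those times, and 85.6 to 534 in the single libraries. All 12 germline and all 12 oocyte and eggshell markers fell at both times, and none of the germline markers was listed at 0 in any group. All 8 sperm markers tested at 0 hr fell, while at 20 hr neither of the 2 tested passed. Of 12 neuron markers, 12 rose at 0 hr and 11 at 20 hr, with summed TPM of 334 to 392 against 1271 to 1312 and of 291 to 326 against 995 to 1025. Epidermis and molt markers rose in 8 of 9 tested at 0 hr and 9 of 10 at 20 hr, body wall muscle markers in 6 and 10 of 10, and intestine markers in 5 of 9 (with 1 lower) and 8 of 9. Age or stage of the worms is not given in the labels, and the part of these marker shifts in any result on the pathway was not tested.

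At 0 hr, 8 of the 9 pathway genes passed the test, 5 higher and 3 lower after atp-2 RNAi, where 83.3% of the 14094 genes tested passed (43.7% higher and 39.6% lower). At 20 hr, 7 passed, 3 higher and 4 lower, where 88.3% of 12916 genes passed (47.7% higher and 40.7% lower). A call alone therefore says little about a pathway gene, and the sizes and directions below carry the description. The median log2 change of the 9 genes was 0.52 at 0 hr, beside 0.13 over all genes tested, and 0.00 at 20 hr, beside 0.31. The authors' deposited table marked 8 of the 9 as significant at 0 hr and 7 at 20 hr. What share of all genes it marked was not counted, so these marks too say little about the pathway.

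**Figure D1:**
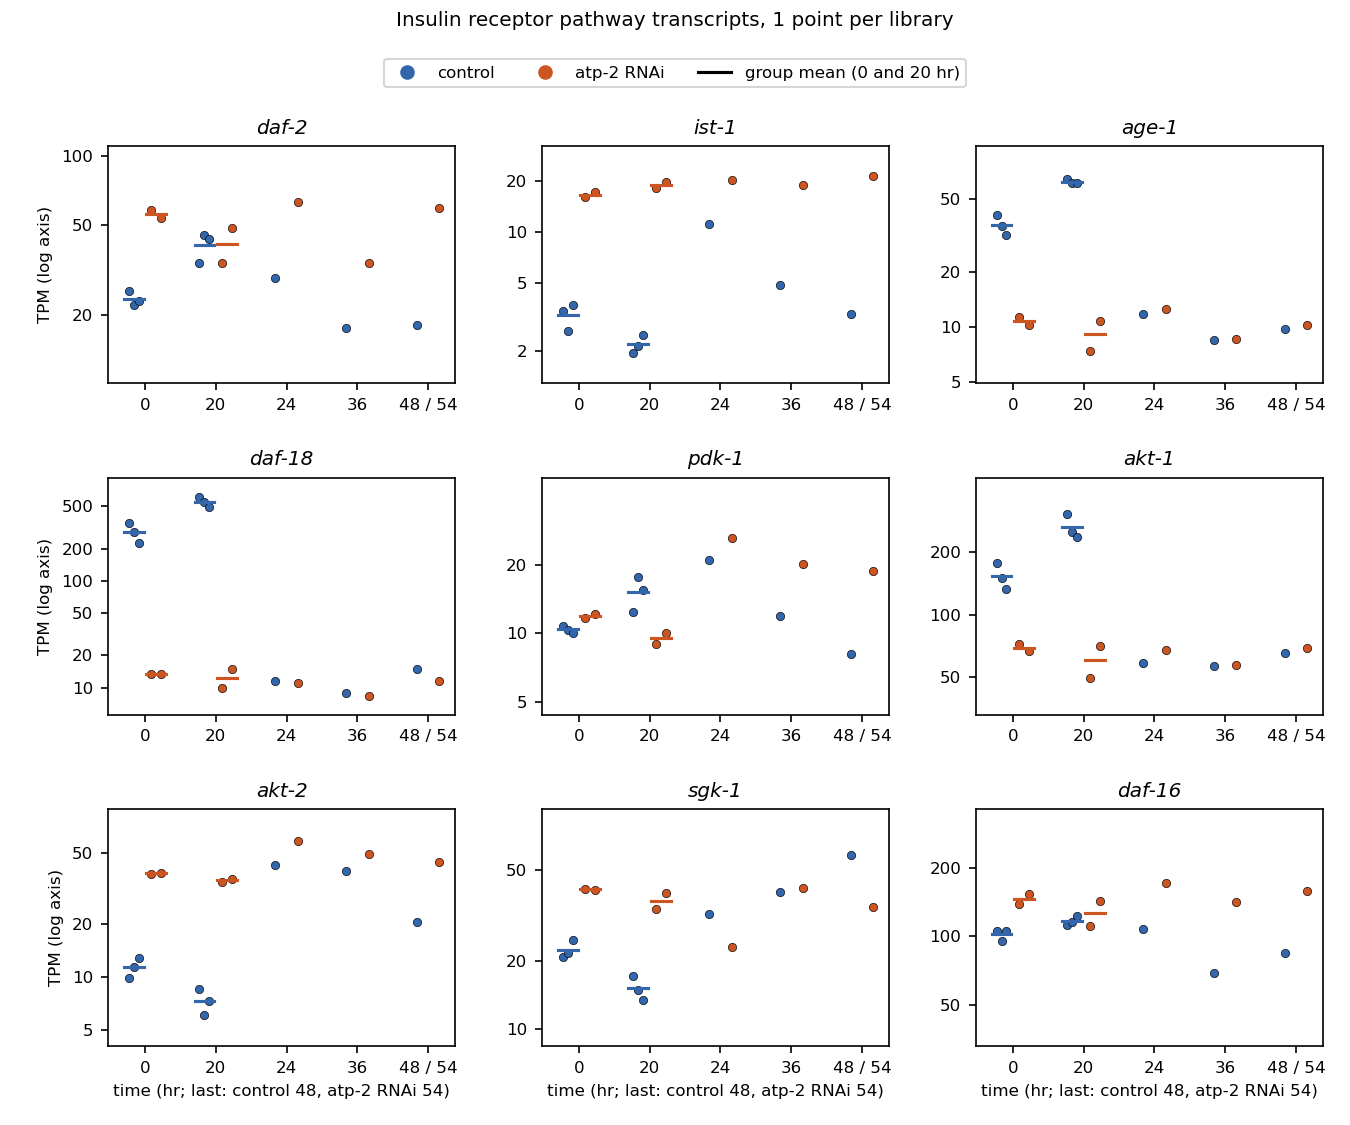
TPM of the 9 pathway genes in each of the 16 libraries (log axis) by time in hr, blue for control and orange for atp-2 RNAi, with a bar at the mean of replicated groups. The genes daf-18, age-1 and akt-1 are high in the 6 controls of 0 hr and 20 hr and low in the other 10 libraries, akt-2 is the reverse, and ist-1 is higher after atp-2 RNAi at every time.

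The receptor daf-2 (chromosome III, 2995487 to 3040860, minus strand, build WBcel235) encodes the worm's insulin and IGF receptor. At 0 hr its TPM were 25.5, 22.3 and 23.2 in the controls and 58.3 and 53.5 after atp-2 RNAi. Both atp-2 RNAi libraries stood above all 3 controls, and the log2 change was 1.21 (SE 0.14, adjusted p = 9.67e-05 by limma), or 2.36-fold in mean TPM. The 20 hr controls had 34.1, 45.2 and 43.2 TPM and the atp-2 RNAi libraries 34.2 and 48.4, so the groups overlapped and the log2 change was 0.00 (SE 0.20, adjusted p = 0.985 by limma). The group means there were 40.8 ± 5.90 TPM (SD, n = 3) and 41.3 ± 10.1 TPM (SD, n = 2), beside 23.7 ± 1.70 TPM (SD, n = 3) and 55.9 ± 3.44 TPM (SD, n = 2) at 0 hr. That 20 hr result depends on scaling: after quantile normalization daf-2 rose by 0.74 (adjusted p = 0.0063 by limma). Among the single libraries, those of atp-2 RNAi held 63.3 TPM of daf-2 at 24 hr, 33.9 at 36 hr and 59.2 at 54 hr, and the controls 29.2 at 24 hr, 17.6 at 36 hr and 18.1 at 48 hr. These are ratios of 2.16, 1.92 and 3.27 in TPM, with no replicates to set them against.

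The adaptor ist-1 (X, 7126648 to 7139646, plus strand) encodes a homolog of the insulin receptor substrates. It was the lowest of the 9 genes in every control group. Its TPM were 3.43, 2.63 and 3.72 in the 0 hr controls and 16.12 and 17.2 after atp-2 RNAi, rising by 2.06 on the log2 scale (SE 0.19, adjusted p = 3.58e-05 by limma). In the 20 hr table the controls had 1.94, 2.15 and 2.50 TPM and the RNAi libraries 18.2 and 19.9, with no overlap and a log2 change of 2.65 (SE 0.17, adjusted p = 4.66e-06 by limma), or 8.66-fold in mean TPM. The single pairs lay in the same direction, with 20.4 TPM over 11.3 at 24 hr, 18.99 over 4.91 at 36 hr, and 21.4 (54 hr) over 3.31 (48 hr). Over all 7 atp-2 RNAi libraries ist-1 kept within 16.12 to 21.4 TPM, whereas the 9 controls ran from 1.94 to 11.3 TPM, so no atp-2 RNAi library overlapped any control. It was the only one of the 9 genes with this separation over all 16 libraries. The share of all genes with such a separation was not counted, so nothing here says whether it is unusual.

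The genes for the kinase that makes PIP3 and the phosphatase that removes it fell at 0 hr and 20 hr, by very different amounts. The catalytic subunit gene age-1 (II, 11519323 to 11527062, minus strand) had 40.6, 35.7 and 31.9 TPM in the 0 hr controls and 11.3 and 10.2 TPM after atp-2 RNAi. Its log2 change was -1.65 (SE 0.16, adjusted p = 4.36e-05 by limma). The 20 hr controls had 64.5, 60.6 and 61.3 TPM and the RNAi libraries 7.42 and 10.8 TPM, a log2 change of -2.66 (SE 0.18, adjusted p = 5.01e-06 by limma) and 6.80-fold lower in mean TPM. The groups were far apart at both times. In the single libraries age-1 differed little between treatments: the atp-2 RNAi worms of 24, 36 and 54 hr had 12.5, 8.66 and 10.3 TPM and the controls of 24, 36 and 48 hr had 11.7, 8.54 and 9.73 TPM. The adaptor subunit of AGE-1, aap-1, fell at the replicated times too, with log2 changes of -1.35 at 0 hr (SE 0.16, adjusted p = 1.15e-04 by limma) and -2.07 at 20 hr (SE 0.14, adjusted p = 5.66e-06 by limma). The ratio of aap-1 to age-1 TPM was 1.35 to 1.78 in the 9 controls and 2.02 to 2.92 in the 7 atp-2 RNAi libraries, without overlap. At 54 hr against 48 hr aap-1 was 1.83-fold higher and age-1 1.06-fold. No test was made on this ratio.

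The phosphatase gene daf-18 (IV, 419938 to 425181, minus strand) was the most abundant of the 9 transcripts in the replicated controls and showed the largest change of the 9 at both times. At 0 hr its TPM were 347, 287 and 223 in the controls and 13.5 and 13.3 after atp-2 RNAi. The log2 change was -4.29 (SE 0.19, adjusted p = 1.22e-06 by limma), 21.3-fold lower in mean TPM, and 437 of the 14094 genes tested fell further. In the 20 hr table the controls had 611, 543 and 492 TPM and the RNAi libraries 9.87 and 14.9 TPM. The log2 change there was -5.38 (SE 0.19, adjusted p = 5.29e-07 by limma), 44.3-fold lower, leaving 2.26% of the control mean, and 191 of 12916 genes fell further. In the single libraries of both treatments daf-18 was low, at 11.04, 8.36 and 11.6 TPM after atp-2 RNAi (24, 36 and 54 hr) and at 11.5, 8.84 and 15.03 TPM in controls (24, 36 and 48 hr). Its 6 controls of 0 hr and 20 hr thus stood apart from the 7 atp-2 RNAi libraries and the 3 other controls alike, with a span of 73.1-fold between the lowest and the highest library. The germline marker sums given above separate the same 6 controls from the same 10 libraries, and their part in the daf-18 result was not tested. In the deposited tables' coordinates daf-18 shares 21 bases on the same strand with eri-1, a nuclease gene of small RNA pathways, which fell too, with log2 changes of -1.71 at 0 hr and -2.54 at 20 hr. Reads in those shared bases could belong to either gene.

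**Figure D2:**
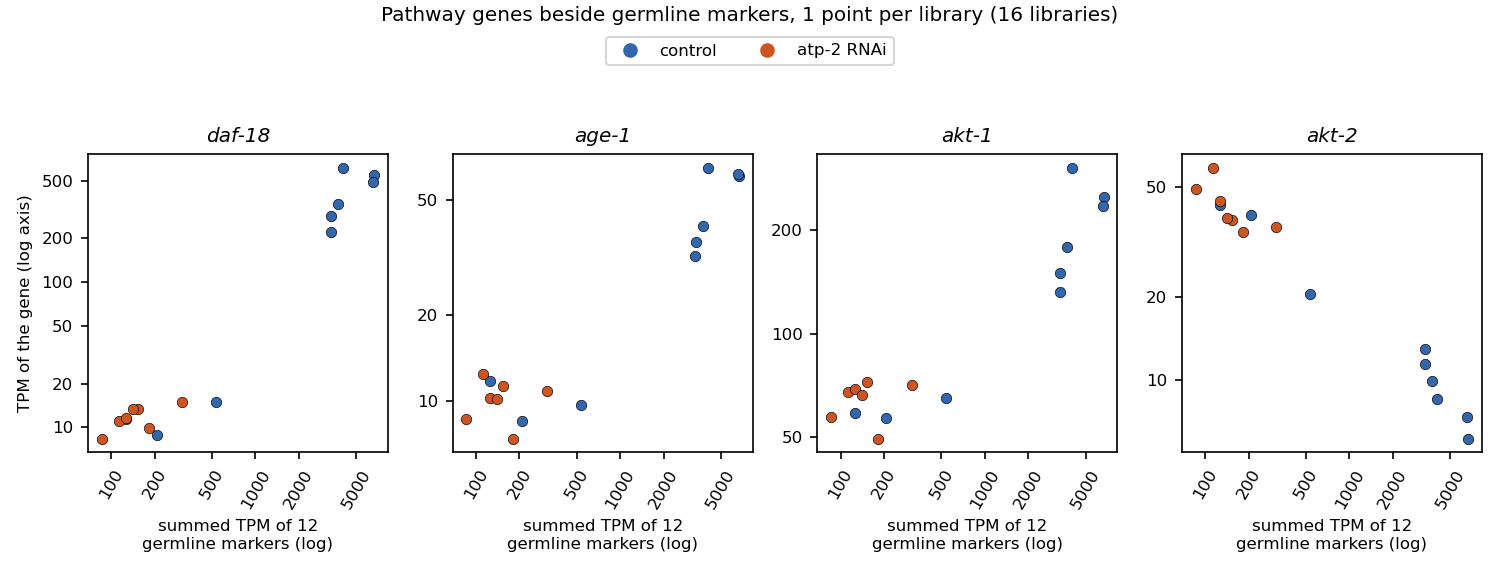
TPM of daf-18, age-1, akt-1 and akt-2 (log axis) against the summed TPM of 12 germline markers (log axis), 1 point per library, blue for control and orange for atp-2 RNAi. The 6 controls with marker sums of 3326 TPM or more hold the highest daf-18, age-1 and akt-1 values and the lowest akt-2 values, and 2 of the other 3 controls lie with the atp-2 RNAi libraries, while the 48 hr control has a marker sum of 534 TPM and 20.4 TPM of akt-2.

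The balance between transcripts for the enzyme that removes PIP3 and the one that makes it differed between groups. The daf-18 to age-1 ratio of TPM was 6.996 to 8.54 in the 0 hr controls and 8.03 to 9.48 in the 20 hr controls. After atp-2 RNAi it was 1.19 to 1.30 at 0 hr and 1.33 to 1.37 at 20 hr, without overlap. In the single libraries it ran from 0.885 (atp-2 RNAi at 24 hr) to 1.54 (control at 48 hr), where both transcripts were low. No test was made on these ratios, which describe the values given gene by gene.

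The kinase gene pdk-1 (X, 1321353 to 1327985, plus strand) encodes the kinase that activates AKT and SGK, and was among the steadier transcripts. Its TPM at 0 hr were 10.8, 10.3 and 10.03 in the controls and 11.6 and 12.1 after atp-2 RNAi. The libraries did not overlap, as was so for 89.9% of genes tested at 0 hr (and 92.3% at 20 hr), but the log2 change of 0.18 (SE 0.16, adjusted p = 0.314 by limma) did not pass, and it was -0.14 after quantile normalization. The 20 hr controls had 12.4, 17.7 and 15.4 TPM and the RNAi libraries 8.99 and 10.04 TPM. That fall of 0.61 on the log2 scale (SE 0.19, adjusted p = 0.0184 by limma) rests on single libraries: without control replicate 2 the adjusted p was 0.09, and without atp-2 RNAi replicate 2 it was 0.0998. In the single libraries pdk-1 was higher after atp-2 RNAi, at 26.1, 20.1 and 18.8 TPM (24, 36 and 54 hr) beside 21.01, 11.9 and 8.09 TPM in controls (24, 36 and 48 hr).

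The AKT genes moved in opposite directions. Both encode kinases that phosphorylate DAF-16, and akt-1 (V, 10248907 to 10252895, plus strand) fell at both times while akt-2 (X, 14147700 to 14152070, plus strand) rose. For akt-1 the 0 hr controls had 178, 151 and 132 TPM and the RNAi libraries 72.3 and 66.4 TPM, a log2 change of -1.13 (SE 0.15, adjusted p = 2.36e-04 by limma). The 20 hr controls had 304, 250 and 236 TPM and the RNAi libraries 49.5 and 71.0 TPM, a log2 change of -2.12 (SE 0.19, adjusted p = 2.00e-05 by limma). Outside those 6 controls akt-1 varied little, from 49.5 to 72.3 TPM in the other 10 libraries, and its single pairs were nearly level, with 67.8 against 58.6 TPM, 57.3 against 56.8 TPM and 68.9 against 65.1 TPM in order of time. The gene overlaps rop-1, which encodes the worm's Ro RNA-binding protein, by 75 bases on the opposite strand. The library kit was strand-specific, but how strand was used in counting is not given in the sources used here, so reads there cannot be told apart. The change of rop-1 was 0.34 at 0 hr (SE 0.11, adjusted p = 0.0209 by limma) and 0.08 at 20 hr (SE 0.13, adjusted p = 0.552 by limma).

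For akt-2 the 0 hr controls had 9.90, 11.4 and 12.9 TPM and the RNAi libraries 38.0 and 38.8 TPM. The log2 change was 1.68 (SE 0.16, adjusted p = 4.28e-05 by limma). In the 20 hr table the controls had 8.54, 6.11 and 7.30 TPM and the RNAi libraries 34.3 and 35.8 TPM, with a log2 change of 2.13 (SE 0.18, adjusted p = 1.51e-05 by limma), or 4.79-fold in mean TPM. No library overlapped at either time. The single atp-2 RNAi libraries held 58.6, 49.2 and 44.4 TPM of akt-2 (24, 36 and 54 hr) and the controls 42.9, 39.5 and 20.4 TPM (24, 36 and 48 hr). The 48 hr control thus lay between the controls of 0 hr and 20 hr and the rest.

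The ratio of akt-1 to akt-2 TPM was accordingly 10.3 to 18.003 in the 0 hr controls and 32.3 to 40.9 in the 20 hr controls. After atp-2 RNAi it was 1.71 to 1.90 and 1.44 to 1.98. The single libraries had 1.37 (control) and 1.16 (atp-2 RNAi) at 24 hr, 1.44 and 1.16 at 36 hr, and 3.19 in the 48 hr control beside 1.55 at 54 hr. In all 16 libraries akt-1 was the more abundant of the pair.

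**Figure D3:**
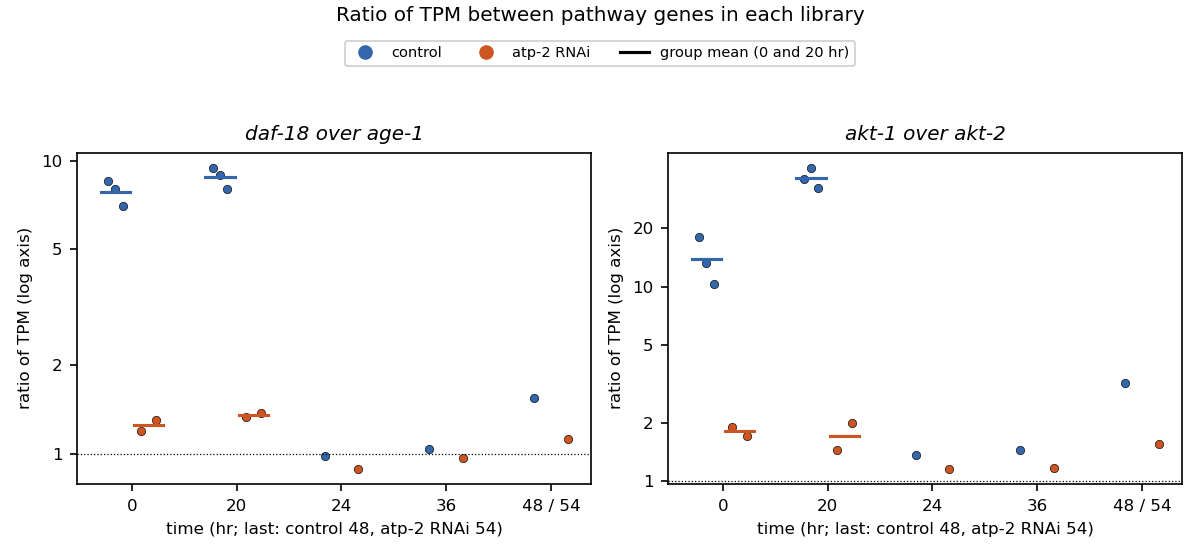
Ratio of daf-18 to age-1 TPM and of akt-1 to akt-2 TPM in each of the 16 libraries (log axis) by time in hr, with a bar at the mean of replicated groups and a dotted line at equal levels. Both ratios are highest in the 6 controls of 0 hr and 20 hr, at 6.996 to 9.48 and 10.3 to 40.9.

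The gene sgk-1 (X, 16254843 to 16262151, minus strand), for a kinase related to AKT and activated by PDK-1, had 20.8, 21.7 and 24.6 TPM in the 0 hr controls and 41.3 and 41.0 TPM after atp-2 RNAi. Its log2 change was 0.86 (SE 0.14, adjusted p = 7.18e-04 by limma). The 20 hr controls had 17.1, 14.8 and 13.4 TPM and the RNAi libraries 33.7 and 39.5 TPM, a log2 change of 1.23 (SE 0.17, adjusted p = 2.20e-04 by limma), again without overlap. The single libraries mostly lay the other way. After atp-2 RNAi sgk-1 had 23.02, 41.7 and 34.5 TPM (24, 36 and 54 hr), and in controls 31.9, 39.99 and 57.9 TPM (24, 36 and 48 hr), the last being its highest value in any library.

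The transcription factor at the end of the pathway, daf-16 (I, 10750343 to 10776700, plus strand), varied least of the 9. The SD of its log2(TPM + 1) over 16 libraries was 0.35, below the lower quartile of 0.60 over 13750 genes, and its highest library was 2.48-fold its lowest. At 0 hr its TPM were 106, 95.6 and 105 in the controls and 139 and 154 after atp-2 RNAi, without overlap, a log2 change of 0.52 (SE 0.12, adjusted p = 0.00442 by limma). Giving every library 1 common median ended that call, at 0.37 (adjusted p = 0.0524 by limma). At 20 hr the controls had 112, 116 and 123 TPM and the RNAi libraries 111 and 143 TPM, which overlapped, and the log2 change of 0.11 (SE 0.15, adjusted p = 0.513 by limma) did not pass, though it was 0.68 after quantile normalization (adjusted p = 0.00321 by limma). In each single pair the atp-2 RNAi library was the higher, at 171, 141 and 158 TPM (24, 36 and 54 hr) beside 108, 69.3 and 84.4 TPM in controls (24, 36 and 48 hr). The reference annotation lists 11 transcripts of daf-16 and 7 of daf-2, which these gene-level values do not separate.

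**Figure D4:**
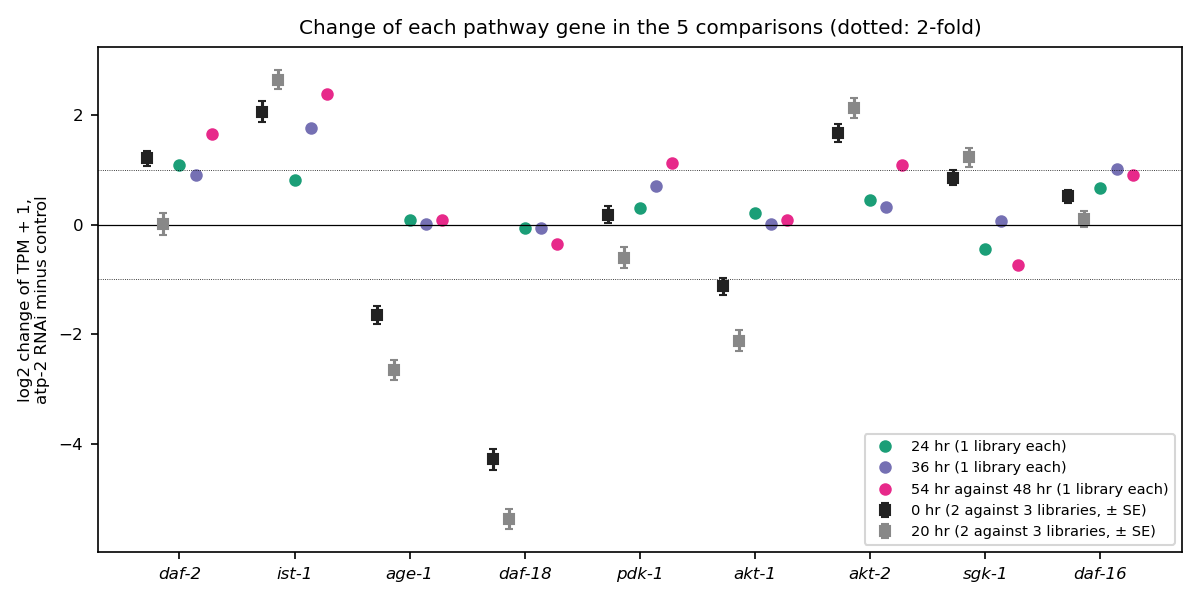
Log2 change of TPM + 1, atp-2 RNAi minus control, for the 9 pathway genes in 5 comparisons. Squares are limma estimates at 0 hr and 20 hr with bars of 1 SE (2 against 3 libraries), circles are single-library pairs without error, and dotted lines mark 2-fold. The squares of age-1, daf-18 and akt-1 lie between -1.13 and -5.38 while their circles lie near 0, and every value of ist-1 is above 0.8.

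The order of the 9 levels differed between the groups. In the 0 hr controls it ran daf-18 (285 ± 62.0 TPM, SD, n = 3), akt-1 (154 ± 23.2), daf-16 (102 ± 5.74), age-1 (36.1 ± 4.40), daf-2 (23.7 ± 1.70), sgk-1 (22.3 ± 1.98), akt-2 (11.4 ± 1.49), pdk-1 (10.4 ± 0.385) and ist-1 (3.26 ± 0.566). Neighbouring daf-2 and sgk-1 overlapped there, as did akt-2 and pdk-1. The 0 hr atp-2 RNAi libraries had the order daf-16 (147 ± 10.2 TPM, SD, n = 2), akt-1 (69.4 ± 4.12), daf-2 (55.9 ± 3.44), sgk-1 (41.1 ± 0.217), akt-2 (38.4 ± 0.507), ist-1 (16.7 ± 0.777), daf-18 (13.4 ± 0.108), pdk-1 (11.9 ± 0.369) and age-1 (10.8 ± 0.781). The phosphatase daf-18 went from first to seventh of 9 at both times. At 20 hr the first 5 places of the control order were the same, pdk-1 and sgk-1 overlapped in sixth and seventh place at 15.1 TPM each, and akt-2 (7.32 TPM) and ist-1 (2.197 TPM) came last. The 20 hr atp-2 RNAi order matched that of 0 hr, but daf-2, sgk-1 and akt-2 overlapped in neighbouring places, as did daf-18, pdk-1 and age-1. At 24, 36, 48 and 54 hr daf-16 was first and akt-1 second in every library.

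The change after atp-2 RNAi differed between 20 hr and 0 hr for 5 of the 9 genes in the fit of 10 libraries, where 43% of 13679 genes passed, 21.1% upward and 21.9% downward. With every library at 1 common median, that background was more one-sided, with 2420 genes upward and 4207 downward in place of 2886 and 2991. All 5 lay lower at 20 hr than at 0 hr. The change of daf-2 went from 1.21 to 0.00, a difference of -1.20 (SE 0.25, adjusted p = 0.0048 by limma). The falls of age-1 and akt-1 were deeper at 20 hr, by -1.01 (SE 0.24, adjusted p = 0.00877 by limma) and -0.996 (SE 0.26, adjusted p = 0.0130 by limma). For daf-18 the difference was -1.09 (SE 0.29, adjusted p = 0.0142 by limma), and without atp-2 RNAi replicate 2 of 20 hr it was -0.82 with an adjusted p of 0.053. For pdk-1 the difference of -0.79 (SE 0.23, adjusted p = 0.0233 by limma) missed the threshold when any of 5 single libraries was left out (adjusted p from 0.0541 to 0.0705). Without atp-2 RNAi replicate 2 of 20 hr, only 3 of the 9 genes passed. The differences of ist-1 (0.59), akt-2 (0.45), sgk-1 (0.37) and daf-16 (-0.41) did not pass, with limma adjusted p of 0.0713, 0.137, 0.164 and 0.0886. For all 5 the control mean stood higher at 20 hr than at 0 hr and the atp-2 RNAi mean lower. Levels of the 2 times come from separate tables and were not tested against each other.

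In the unreplicated pairs, all pathway genes beyond 2-fold were higher after atp-2 RNAi. At 24 hr only daf-2 passed 2-fold, where 10.5% of 12548 genes did (6.41% higher and 4.1% lower). At 36 hr ist-1 (3.87-fold in TPM) and daf-16 (2.03-fold) did, beside 13.1% of 12416 genes (7.57% higher and 5.56% lower). For 54 hr against 48 hr, ist-1 (6.48-fold), daf-2 (3.27-fold), pdk-1 (2.33-fold) and akt-2 (2.17-fold) did, beside 32.7% of 13473 genes (17.8% higher and 14.9% lower), in libraries that also differ by 6 hr in time. The median log2 ratio of the 9 genes was 0.30, 0.31 and 0.90 in order of time, beside 0.13, 0.15 and 0.17 over all genes. With every library at 1 common median, 0, 1 and 2 genes lay beyond 2-fold. In these pairs 10 of the 12 germline markers were more than 2-fold lower at 36 hr and again at 54 hr, and 8 of the 12 neuron markers were more than 2-fold higher at 54 hr, whose part was not tested. The authors' deposited table marked none of the 9 in these pairs, with a lowest q-value of 0.28 for ist-1. What share of all genes it marked in these pairs was not counted.

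Of the 9 genes, 4 are on the X chromosome (ist-1, pdk-1, akt-2 and sgk-1), and 3 of these 4 rose at both times. Over all genes, 63% of 2026 tested X-linked genes rose at 0 hr and 18% fell, beside 40.4% and 43.3% of 12040 autosomal genes. At 20 hr the shares were 67% and 18.3% of 1914 X-linked genes, beside 44.2% and 44.7% of 10976. The median log2 change of X-linked genes was 0.87 at 0 hr and 1.35 at 20 hr, against -0.06 and -0.01 for autosomal genes, so akt-2 and ist-1 exceeded the X-linked median at both times and sgk-1 lay just under it. In the single pairs the X-linked medians were 0.09, 0.23 and 0.32. The 3 genes that fell at both times are on autosomes II, IV and V. The part of the chromosome in these changes was not tested.

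Each gene's profile over the 16 libraries was also set against 13750 genes, by the root mean square difference of centred log2(TPM + 1). For age-1 the nearest were scc-3 (0.088) and hst-1 (0.091), where scc-3 encodes a cohesin subunit, and for akt-1 they were cdk-8 (0.11), a Mediator kinase, and ccpp-1 (0.11). For daf-18 they were Y39E4B.5 (0.15) and Y39B6A.10 (0.19). Nearest to akt-2 were unc-64 (0.17), the syntaxin of neurotransmitter release and itself one of the neuron markers, and F35D11.1 (0.17). Those of ist-1 were C46C2.2 (0.22) and tps-1 (0.23), a trehalose synthase gene that is also among the DAF-16 targets below. The profile of pdk-1 was nearest to pac-1 (0.16) and Y48G8AR.2 (0.16), that of sgk-1 to F14B6.6 (0.15) and T08B1.1 (0.16), that of daf-16 to pqn-80 (0.15) and B0303.7 (0.16), and that of daf-2 to F53A2.9 (0.24) and F42H10.6 (0.28). Within the pathway, age-1 and akt-1 were the closest pair (0.26), followed by daf-2 and daf-16 (0.30), and ist-1 and daf-18 the farthest (3.45).

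Genes upstream and beside the core were taken from lists written by name. Of 19 insulin-like peptide genes, 12 passed the filter on low values at 0 hr, of which 5 rose and 4 fell (median log2 change 0.24), and 5 passed it at 20 hr, of which all 5 rose. Of all genes tested, 43.7% rose and 39.6% fell at 0 hr, and 47.7% rose and 40.7% fell at 20 hr. The ligand counts move with the filter, since without it 10 ligand genes rose and 1 fell at 20 hr. Without any 1 of the 0 hr controls, 2 rather than 4 ligand genes fell at 0 hr. A gene that passes the filter through its high group alone has to differ, so the counts of this and the following lists are descriptions only, and no p is given for a gene with a group mean below 1 TPM. The ligand gene ins-17 went from 9.47 ± 1.72 TPM (SD, n = 3) to 68.9 ± 18.9 TPM (SD, n = 2) at 0 hr and from 4.04 ± 0.677 to 55.4 ± 5.66 TPM at 20 hr. The gene ins-18, whose product is known as an antagonist of DAF-2, rose by 2.69 on the log2 scale at 0 hr (SE 0.27, adjusted p = 5.23e-05 by limma), and at 20 hr had 0.412 ± 0.311 TPM in controls and 21.2 ± 0.337 TPM after atp-2 RNAi. Another ligand gene, ins-11, had control means of 0.751 and 0.215 TPM beside 11.9 and 6.49 TPM after atp-2 RNAi. The antagonist gene ins-1 had 0.260 TPM in controls and 2.72 TPM after atp-2 RNAi at 20 hr, and did not pass at 0 hr. The agonist gene daf-28 had 5.62 ± 0.204 TPM in the 0 hr controls and 0.573 ± 0.0679 TPM after atp-2 RNAi. Most insulin-like peptides are made in neurons, and the neuron markers above rose as well, whose part here was not tested.

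**Figure D5:**
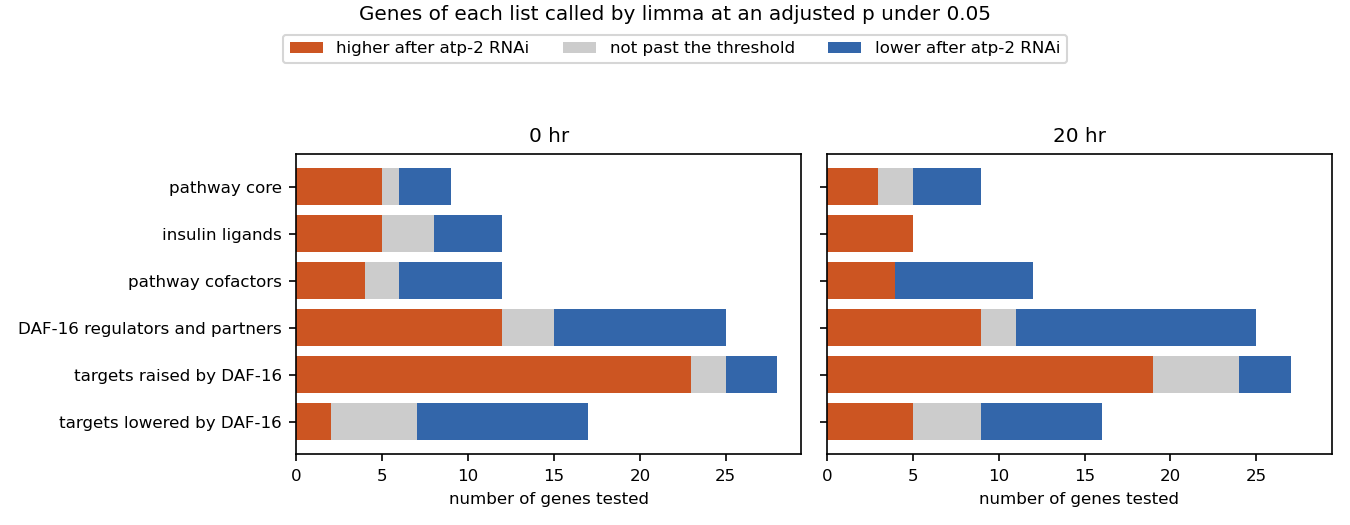
Number of genes tested in each list at 0 hr and at 20 hr, split into those higher (orange), those lower (blue) and those that did not pass (grey) by limma at an adjusted p under 0.05. The pathway core and its regulators are split between both directions, while targets raised by DAF-16 are mostly higher, 23 of 28 at 0 hr and 19 of 27 at 20 hr. Of all genes tested, 43.7% were higher at 0 hr and 47.7% at 20 hr.

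Among 17 pathway cofactors, 12 were tested at each time, of which 4 rose and 6 fell at 0 hr and 4 rose and 8 fell at 20 hr (medians -0.40 and -0.92). Of all genes tested, 43.7% rose and 39.6% fell at 0 hr, and 47.7% rose and 40.7% fell at 20 hr. The nuclear hormone receptor gene daf-12 rose by 2.29 and 2.30, and daf-9, for the cytochrome P450 that makes its steroid ligand, rose by 2.02 at 0 hr and had 0.527 TPM in controls and 13.7 TPM after atp-2 RNAi at 20 hr. The adaptor gene shc-1 rose by 1.98 at 0 hr and by 1.22 at 20 hr. By contrast eak-7, which acts beside AKT-1 on DAF-16, fell, at -1.73 and -2.37. The ERK kinase gene mpk-1 fell by 1.20 at 0 hr and by 2.21 at 20 hr, there from 177 ± 4.79 to 37.6 ± 1.85 TPM. Of 25 tested regulators and partners of DAF-16, 12 rose and 10 fell at 0 hr, and 9 rose and 14 fell at 20 hr (medians 0.11 and -0.54). These counts stand beside the same all-gene shares, to which those of 0 hr lie close. The TFEB homolog hlh-30 rose from 13.5 ± 3.63 to 211 ± 12.7 TPM at 0 hr and by 3.55 at 20 hr on the log2 scale (SE 0.37, adjusted p = 4.72e-05 by limma). The gene hcf-1, for a nuclear inhibitor of DAF-16, fell, at -2.62 (SE 0.15, adjusted p = 4.00e-06 by limma) and -3.39 (SE 0.17, adjusted p = 1.67e-06 by limma). The transcription factor gene pqm-1 rose by 2.60 at 0 hr, and nhl-1 by 2.14 and 3.46. The gene imb-2, for an importin that carries DAF-16 into the nucleus, fell by 1.82 at 0 hr and by 2.70 at 20 hr.

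Of 30 genes listed by name as raised by DAF-16, 28 were tested at 0 hr, where 23 rose and 3 fell. Their median log2 change was 1.76, beside 0.13 over all genes. At 20 hr 27 were tested, of which 19 rose and 3 fell (median 2.13, beside 0.31). With the replicate number as a block, 5 rather than 3 fell at 20 hr. Of all genes tested, 43.7% rose and 39.6% fell at 0 hr, and 47.7% rose and 40.7% fell at 20 hr. In the single pairs, 15 of 27, 11 of 26 and 19 of 28 were more than 2-fold higher after atp-2 RNAi, and 0, 1 and 3 more than 2-fold lower, beside the 6.41%, 7.57% and 17.8% of all genes that were higher. The glyoxylate cycle gene icl-1 went from 28.1 ± 24.9 TPM (SD, n = 3) to 1460 ± 136 TPM (SD, n = 2) at 0 hr, a log2 change of 5.98 (SE 0.55, adjusted p = 3.42e-05 by limma), and rose by 5.93 at 20 hr. The metallothionein gene mtl-1 had 0.313 ± 0.170 TPM in the 0 hr controls and 70.0 ± 23.5 TPM after atp-2 RNAi. The gene cdr-2 rose by 4.58 and 5.75, and nnt-1, for a mitochondrial transhydrogenase, had 0.870 TPM in controls and 31.6 TPM after atp-2 RNAi at 20 hr. The small heat shock gene sip-1, which is expressed in oocytes and embryos, fell, at -5.03 and -4.83, from control means of 1509 ± 298 and 2695 ± 247 TPM. The superoxide dismutase gene sod-3, a common reporter of DAF-16 named here after its values were seen, had 4.91 ± 0.726 and 19.97 ± 13.4 TPM at 0 hr and 0.904 ± 0.273 and 14.6 ± 3.94 TPM at 20 hr, controls first. In the single pairs sod-3 had 5.53 against 1.56 TPM, 7.53 against 0.966 TPM and 42.5 against 1.56 TPM. The list holds hsp-16 and ctl genes with near-identical copies, whose separate values are uncertain. The single-pair counts of higher genes include hsp-16.1, hsp-16.11, hsp-16.2, hsp-16.48 and hsp-16.49 in every pair. They also include hsp-16.41 at 24 hr and at 54 hr against 48 hr. At 24 hr hsp-16.1 and hsp-16.11 were both 5.13-fold higher, so these are not counts of separate responses. Many of these genes also answer to other stress regulators.

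Of 18 genes listed by name as lowered by DAF-16, 17 were tested at 0 hr, where 10 fell and 2 rose (median log2 change -0.79). Leaving out control replicate 3 of 0 hr gave 4 that rose. At 20 hr 16 were tested, of which 7 fell and 5 rose (median -0.26). Of all genes tested, 39.6% fell and 43.7% rose at 0 hr, and 40.7% fell and 47.7% rose at 20 hr. The yolk protein gene vit-2, used by the adult intestine to provision oocytes, went from 1941 ± 426 to 0.335 ± 0.201 TPM at 0 hr and from 3472 ± 1584 to 7.48 ± 2.19 TPM at 20 hr. The related vit-5, which has near-identical copies, had a control mean of 1476 ± 279 TPM at 0 hr and in the atp-2 RNAi libraries it is listed at 0 (both replicates). The gene dod-23 had 41.2 and 0.0957 TPM at 0 hr and 87.04 and 0.263 TPM at 20 hr, and fat-7, for a fatty acid desaturase, had 22.6 and 0.239 TPM at 0 hr, controls first. Against the list's name, dod-22 rose by 4.79 at 20 hr, from 4.02 ± 0.144 to 138 ± 1.77 TPM (SE 0.14, adjusted p = 3.12e-07 by limma). Both yolk genes move with the oocyte and eggshell markers, whose summed TPM was 4686 to 6586 against 59.2 to 71.4 at 0 hr and 8494 to 9842 against 75.01 to 106 at 20 hr, and the part of that shift was not tested.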

How the data were processed

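RNA of whole worms was sequenced in 16 libraries, 9 control and 7 atp-2 RNAi. Per the labels' protocols, GENEzol was used for extraction and a SureSelect kit that keeps strand for the libraries. The submitters' processing notes name bcl2fastq 2.20, TopHat, Cufflinks and build WBcel235. How strand entered the counting, and which annotation release was used, is not given in the sources used here. As values the authors deposited TPM per library, per the file headers, which keep no totals, so depth is unknown and no counting interval or detection limit is given. A TPM of 0.0001, which marks no signal, was set to 0. The authors' deposited log2 ratios, p-values and q-values, per the file headers, come from a test that is not named and were used only to count the authors' own calls.

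The pathway genes and all gene lists were chosen with earlier results of these data known. Atp-2 RNAi was compared with control on log2(TPM + 1) in R 4.3.3, with limma 3.58.1 and its trend of variance on level, over genes that averaged 1 TPM or more, with Benjamini-Hochberg adjustment over all of them at 0.05. The difference between 20 hr and 0 hr was an interaction term over 10 libraries. Samples were not treated as paired. Single-library pairs were described at 2-fold, with no test. The fit was tested on simulated data with known changes. Coordinates are those of the deposited tables, and transcripts were counted in Ensembl's annotation of the same build, which has identical coordinates for 1 of the 9 genes (akt-2). Named beside the 9 genes by rule are atp-2, aap-1, up to 4 genes of each list per time with the largest called change, and for each pathway gene the 2 with the most like profile. The genes eri-1, rop-1 and sod-3 were named after their values were seen. Python 3.11.15, numpy 2.4.6, pandas 2.3.3 and matplotlib 3.10.9 made the tables and figures. Alternatives were a pseudocount of 0.1, quantile normalization, 1 common median for every library, no filter or a filter of 5 TPM, a block for the replicate number, a joint fit of the 10 libraries, no trend, and leaving out each library. No sequences are shown.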

Additional observations from a re-analysis of the deposited data

Results flagged for a closer look

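The change after atp-2 RNAi differed between 20 hr and 0 hr, by the interaction term in limma over 10 libraries, for 5 pathway genes. Of all 13679 genes tested, 43% passed. The differences, 20 hr minus 0 hr on the log2(TPM + 1) scale, were -1.20 for daf-2, -1.01 for age-1, -1.09 for daf-18, -0.79 for pdk-1 and -0.996 for akt-1. That of daf-18 was -0.82 without atp-2 RNAi replicate 2 of 20 hr. That of pdk-1 missed the threshold without control replicate 2 of 0 hr or without that of 20 hr. These controls are only some of the 5 single libraries counted above for pdk-1. For all 5 the lower value at 20 hr goes with control means that stood higher at 20 hr than at 0 hr (for daf-2, 40.8 beside 23.7 TPM) and atp-2 RNAi means that stood lower (41.3 beside 55.9 TPM), and those levels come from separate tables.

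Other values stand out because single-library pairs lie on the other side of 0 from the replicated times, a difference that was not tested. The gene age-1 fell at 0 hr and 20 hr, and its log2 ratios were 0.081 at 24 hr, 0.017 at 36 hr and 0.075 at 54 hr against 48 hr. For akt-1, which fell at both times too, they were 0.21, 0.011 and 0.079. These ratios of age-1 and akt-1 are close to no difference. The gene sgk-1 rose at both replicated times, with log2 ratios of -0.45 at 24 hr and -0.73 at 54 hr against 48 hr, but 0.06 at 36 hr, on the same side. The gene pdk-1 fell at 20 hr, with log2 ratios of 0.30 at 24 hr, 0.71 at 36 hr and 1.13 at 54 hr against 48 hr.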

How the results depend on the processing

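Across alternatives, ist-1, age-1, daf-18, akt-1, akt-2 and sgk-1 kept their direction and their side of the threshold at 0 hr and 20 hr under every setting run, as did daf-2 at 0 hr. At 20 hr the log2 change of daf-2 was -0.11 with every library at 1 common median (the median shift), -0.12 with the replicate block, -0.12 without control replicate 1, -0.24 without atp-2 RNAi replicate 3 (0.25 without replicate 2), and 0.74 after quantile normalization. For daf-16 at 20 hr it was -0.012 after the median shift and -0.076 without atp-2 RNAi replicate 3 (0.29 without replicate 2), and 0.68 after quantile normalization. The difference of daf-16 was 0.11 after quantile normalization, but -0.60 after the median shift (limma adjusted p = 0.0224) and -0.59 without atp-2 RNAi replicate 3 of 20 hr (limma adjusted p = 0.0226). The change of pdk-1 at 0 hr was -0.14 after quantile normalization. The cause of these moves was not tested. The median shift moved the median change of all genes from 0.13 to -0.02 at 0 hr, from 0.31 to 0.19 at 20 hr and from -0.08 to -0.26 for the difference.

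Leaving out each library gave 10449 to 11939 genes called at 0 hr, 10661 to 11433 at 20 hr and 3600 to 6546 for the difference (3600 without atp-2 RNAi replicate 2 of 0 hr), and 8, 6 to 7 and 3 to 6 pathway genes. An arm left with 1 library was assumed to vary like the other. In the single pairs the median shift left 0, 1 and 2 pathway genes beyond 2-fold in place of 1, 2 and 4. With the replicate block, 11542, 11266 and 5300 genes and 8, 7 and 5 pathway genes were called. Deviations of samples with the same number correlated at 0.03, -0.05, -0.07 and 0.01. With 2 atp-2 RNAi libraries at each time, their deviations mirror each other, so these values cannot decide whether equal numbers mark a pairing. Depth is unknown, so the precision of low values such as ligand genes cannot be given.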
